A study of Mus musculus with 4 samples.

Results

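Epas1 and 7 genes that act with it in oxygen sensing were examined in mouse embryonic stem cells that have or lack the B-type lamins. The 8 genes are Epas1, Hif1a and Arnt (subunits of the hypoxia-inducible factors, HIF), Egln1, Egln2, Egln3 and Hif1an (hydroxylases) and Vhl. They were taken by symbol from a table of 37991 genes. The group was built around Epas1, which was chosen by its count in this same table, where it was called higher in dKO cells; the other 7 were added for their known roles. The Epas1 dKO to wt difference, and that of the other members, is therefore a description and supports nothing by itself. All 8 genes passed the filter on low counts.

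RNA sequencing compared wild-type cells (wt) with cells null for both B-type lamins (dKO), with 2 biological replicates of each. All 4 libraries carried the strain label ZHBTc4, a stem cell line known for a disrupted Pou5f1 whose product, Oct4, comes from a tetracycline-regulated transgene. No treatment, oxygen level or clone number is given in the labels, so loss of the lamins and a difference between lines cannot be told apart. The replicates are called biological without mention of separate cultures, so p-values measure only the spread between these samples.

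HIF is a dimer of an oxygen-regulated alpha subunit, Hif1a or Epas1 (HIF-2 alpha), and the constant partner Arnt. With oxygen, the prolyl hydroxylases Egln1, Egln2 and Egln3 mark the alpha protein, Vhl binds it, and a ubiquitin ligase sends it to the proteasome. Hif1an hydroxylates an asparagine and blocks binding of the coactivators Ep300 and Crebbp. Most of this control acts on protein, which was not measured here. HIF-1 is best known for glycolytic genes, and HIF-2 for erythropoietin, vessel and iron genes.

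Library totals lay between 12899964 and 16697970 counts. Lmnb1, a targeted gene, had 8321 or more counts in each wt library and 101 or fewer in each dKO library, which matched the genotype labels. All 12 stem cell markers were measured, with summed levels of 6038 and 6522 CPM (counts scaled to library size and by TMM) in wt and 6881 and 7431 CPM in dKO libraries. Most of that gap came from Zfp42, at a mean of 640 CPM in wt against 1442 CPM in dKO cells, while 7 of the 12 had negative log2 fold changes and the median was -0.015. In bulk RNA, fewer cells of a type and less RNA per cell cannot be told apart.

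Epas1 (ENSMUSG00000024140, chromosome 17, 87153247 to 87232750, coordinates of the deposited table) was read 164 and 245 times in the wt replicates (1, then 2, here and throughout) against 877 and 886 times in dKO. These are 12.8 and 16.1 CPM in wt against 53.8 and 52.9 CPM in dKO libraries. Both dKO libraries lay far above both wt libraries, and the dKO pair was closer together than the wt pair. Mean levels were 14.5 ± 2.32 CPM (wt) against 53.3 ± 0.70 CPM (dKO; SD, n = 2 each), and the fitted ratio was 3.68-fold (log2 fold change 1.88, SE 0.17). No other gene of the table overlapped its position.

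Hif1a (chromosome 12, 75002362 to 75048517), the alpha subunit found in nearly all tissues, had 185 and 159 CPM in wt against 195 and 192 CPM in dKO libraries. The dKO libraries were the higher ones, by less than the gap between the wt replicates. The fitted log2 fold change, 0.17, had a 95% interval from -0.14 to 0.48. An antisense gene that overlaps Hif1a, Gm15283, had 2 to 6 counts per library. Arnt (chromosome 3, 95238310 to 95301162), the dimer partner of both alpha subunits, had 143 and 136 CPM in wt against 151 and 168 CPM in dKO libraries. Its log2 fold change was 0.20 (95% interval -0.10 to 0.49), and the dKO libraries again lay above wt by a small margin. The intervals of Hif1a and Arnt ended at or below 0.49, while that of Epas1 began at 1.47. Epas1 was chosen by this same contrast, so the gap between these intervals is a description only.

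**Figure D1:**
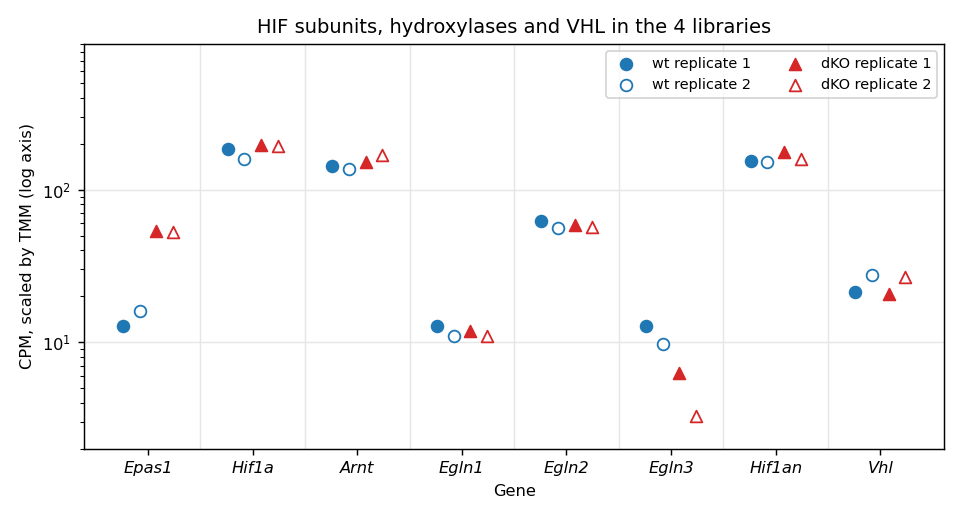
TMM-scaled CPM (log axis) of the 8 genes in each library, with circles for wt and triangles for dKO, filled for replicate 1 and open for replicate 2. Epas1 stands at 12.8 and 16.1 CPM in wt against 53.8 and 52.9 CPM in dKO libraries, Egln3 is at 12.7 and 9.80 CPM in wt against 6.32 and 3.28 CPM in dKO libraries, and the genotypes of the other genes lie close together.

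Levels were compared between genes per kilobase of merged exons (RPKM from TMM-scaled CPM). In wt cells Epas1 was the lowest of the 8 genes, at 2.59 ± 0.42 RPKM (SD, n = 2), and Hif1a the highest, at 29.1 ± 3.10 RPKM. Between them stood Hif1an (23.1), Egln2 (21.1), Arnt (17.4), Vhl (8.15), Egln3 (4.23) and Egln1 (3.30 RPKM), and no neighbouring pair in this order overlapped between libraries. In dKO cells Epas1 moved up to place 5 at 9.54 ± 0.13 RPKM, above Vhl (7.89), Egln1 (3.18) and Egln3 (1.80 RPKM). Hif1a (32.8), Hif1an (25.4), Egln2 (20.7) and Arnt (19.9 RPKM) remained above it, and Egln2 and Arnt overlapped. The places of Arnt and Hif1an depend on the length used. With the longest coding transcript Hif1an was at place 4 in both genotypes and Arnt at place 2, at 32.2 RPKM in wt against 36.9 RPKM in dKO cells, while the places of Epas1 and Hif1a did not change.

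Within each library, Hif1a was 13.7 and 9.35 times as high as Epas1 in wt and 3.43 and 3.45 times as high in dKO libraries, per kilobase. These ratios do not depend on scaling between libraries. Hif3a, the remaining alpha subunit gene, lay at 1.01 to 1.58 RPKM in the 4 libraries, with overlapping genotypes. Of the summed RPKM of the 3 alpha subunit genes, Epas1 made up 6.62% and 9.17% in wt against 22.0% and 21.8% in dKO libraries. The sum itself was 34.6 and 31.4 RPKM in wt against 43.9 and 43.3 RPKM in dKO libraries. With the longest coding transcript as length, the mean share was 6.56% in wt against 18.6% in dKO cells. Hif1a was thus the most abundant alpha subunit transcript in every library.

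**Figure D2:**
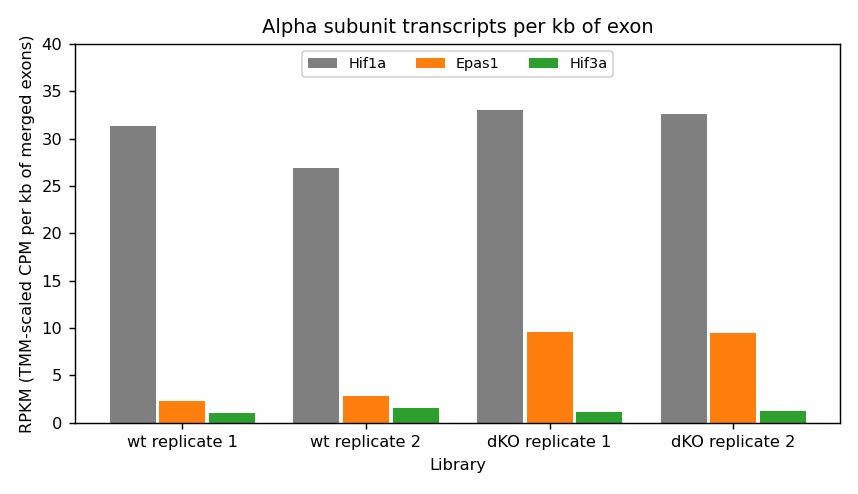
RPKM of the alpha subunit genes Hif1a, Epas1 and Hif3a in each library, as bars from 0. Hif1a is highest in all 4 libraries, and Epas1 is at 2.29 and 2.88 RPKM in wt against 9.63 and 9.45 RPKM in dKO libraries.

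Among the hydroxylases, Egln3 had a negative log2 fold change, and the values of Egln1 and Egln2 were near 0. With genotype as the only term Egln3 was not called (adjusted p = 0.723 in edgeR). With a term for replicate number added it was called (adjusted p = 0.000182 in edgeR), in a fit that called 9.26% of all genes tested. The labels do not say what libraries of the same replicate number share. Egln3 (chromosome 12, 55279968 to 55304847), a prolyl hydroxylase known as a target gene of HIF, had 163 and 149 counts in wt against 103 and 55 in dKO libraries. These are 12.7 and 9.80 CPM in wt against 6.32 and 3.28 CPM in dKO libraries. The genotypes did not overlap. The dKO libraries differed from each other by nearly as much as the higher of them differed from the lower wt library. The means were 11.3 ± 2.08 and 4.80 ± 2.15 CPM (SD, n = 2 each), with a log2 fold change of -1.23 and a 95% interval of -2.16 to -0.30. Without dKO replicate 2 it was -0.83, so this library sets part of its size.

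Egln1 (chromosome 8, 127432496 to 127473154), the main oxygen sensor in most cells, had 12.8 and 10.9 CPM in wt against 11.8 and 11.04 CPM in dKO libraries. The genotypes overlapped, and its log2 fold change was -0.06 (95% interval -0.57 to 0.46). Egln2 (chromosome 7, 27943677 to 27951821) had 62.5 and 55.8 CPM in wt against 59.0 and 56.9 CPM in dKO libraries. Its log2 fold change was -0.03 (95% interval -0.35 to 0.29), again with overlapping genotypes. Its end touches Cyp2t4, on the other strand in GENCODE M21, which had 6 to 11 counts per library. Egln2 was the most abundant prolyl hydroxylase transcript, with 72.8% and 74.8% of their summed RPKM in wt against 78.8% and 82.5% in dKO libraries. The share of Egln3 was 15.6% and 13.8% in wt against 8.89% and 5.005% in dKO libraries.

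Hif1an (chromosome 19, 44637340 to 44650764), the asparaginyl hydroxylase, had 154 and 151 CPM in wt against 177 and 158 CPM in dKO libraries. Its log2 fold change was 0.14 (95% interval -0.16 to 0.43), and the lower dKO library was close to wt. Vhl (chromosome 6, 113573953 to 113581627), the recognition subunit of the ligase, had 21.2 and 27.7 CPM in wt against 20.6 and 26.7 CPM in dKO libraries. Replicate 2 was the higher one in both genotypes, and its log2 fold change was -0.05 (95% interval -0.58 to 0.49).

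**Figure D3:**
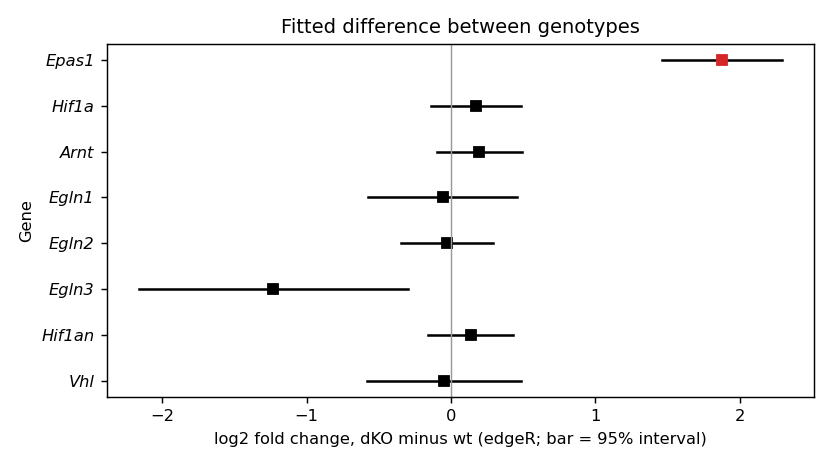
Log2 fold change, dKO minus wt, of the 8 genes from edgeR with genotype as the only term, with its 95% interval as a bar. Epas1 is at 1.88 and Egln3 at -1.23, and the intervals of the other 6 genes include 0.

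With genotype as the only term, only Epas1 of the 8 genes passed edgeR's adjusted p of 0.05, at 0.0471, and 12 of all 14027 genes tested did (0.0855%). The call of Epas1 was lost with total counts in place of TMM (edgeR, adjusted p = 0.0724) and with limma-voom (0.0737). Since that call chose the group, nothing is read from the count. Genotypes did not overlap for 5 of the 8 genes, 4 with dKO above wt and 1 below, while 33.6% of all genes tested did not overlap (17.2% above and 16.4% below).

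The promoter windows of Hif1a and of the 3 prolyl hydroxylases are shown so that the prolyl hydroxylases can be set beside each other and beside an alpha subunit. Each window is the 250 bases before the RefSeq start in GRCm38.p6, a build other than that of the count table, read 5′ to 3′ on the gene's strand. Capitals mark the HIF binding core, searched as ACGTG and GCGTG on both strands, where CACGTG counts as an ACGTG on each strand and neighbouring matches may overlap. The RefSeq promoter set used here held windows for 7 of the 8 genes and none for Epas1.
Hif1a (chr12:73907617-73907866, plus strand): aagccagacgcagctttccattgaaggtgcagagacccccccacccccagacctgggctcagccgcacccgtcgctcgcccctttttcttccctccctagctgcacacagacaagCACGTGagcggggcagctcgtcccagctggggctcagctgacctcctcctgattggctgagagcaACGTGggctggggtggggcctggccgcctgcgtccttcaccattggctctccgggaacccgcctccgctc
Egln1 (chr8:124949255-124949504, minus strand): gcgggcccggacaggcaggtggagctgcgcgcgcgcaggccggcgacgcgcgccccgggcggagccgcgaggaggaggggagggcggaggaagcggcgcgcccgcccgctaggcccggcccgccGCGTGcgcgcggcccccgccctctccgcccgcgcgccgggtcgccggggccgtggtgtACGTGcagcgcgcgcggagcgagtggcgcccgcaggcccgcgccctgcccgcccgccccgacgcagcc
Egln2 (chr7:27166803-27167052, minus strand): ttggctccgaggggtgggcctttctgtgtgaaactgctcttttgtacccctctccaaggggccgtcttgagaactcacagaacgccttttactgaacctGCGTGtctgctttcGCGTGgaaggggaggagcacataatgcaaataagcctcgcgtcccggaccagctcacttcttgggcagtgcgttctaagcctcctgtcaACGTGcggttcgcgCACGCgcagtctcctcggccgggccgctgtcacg
Egln3 (chr12:54203875-54204124, minus strand): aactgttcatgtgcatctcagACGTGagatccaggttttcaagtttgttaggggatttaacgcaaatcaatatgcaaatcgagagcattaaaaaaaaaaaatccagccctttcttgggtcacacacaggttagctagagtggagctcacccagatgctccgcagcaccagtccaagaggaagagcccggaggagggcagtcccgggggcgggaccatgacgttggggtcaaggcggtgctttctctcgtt

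Egln3 held 1 ACGTG and no GCGTG, Egln1 held 1 of each, Egln2 held 1 ACGTG and 3 GCGTG, and Hif1a held 3 ACGTG. Of 32841 windows of this length, 16.6% held ACGTG, 28.2% held GCGTG and 38.6% either. Among the 8 windows of the 7 genes (Egln2 has a second start), 6 held either core and those of Vhl and Hif1an held neither. The core contains a CpG, and the windows of these genes ranged from 48.0% GC (the second start of Egln2) to 86.0% GC (Egln1), against a median of 52.4%. A match is a stretch of letters and not a measured binding site.

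Pooled over 7 lists and with genotype as the only term, other genes of the pathway were close to the background of the whole table. The lists were not alike, and the glycolytic genes (median -0.18) and the genes linked to HIF-2 (-0.35) lay lower, as given below. Of 146 genes with a row, 130 were tested, 63 with positive and 67 with negative log2 fold changes and a median of -0.01, beside a median of -0.002 over all genes. None passed edgeR's adjusted p of 0.05 with genotype as the only term, and none did with DESeq2 or limma-voom fitted the same way. At an unadjusted p under 0.05 there were 9 (6.92%, 5 higher and 4 lower), beside 5.57% of all genes tested. Genotypes did not overlap for 45 of them (34.6%), 20 with dKO above wt and 25 with dKO below, close to the 33.6% of all genes tested. With a term for replicate number added in edgeR, 20 of the 130 (15.4%) were called, 8 higher and 12 lower, beside 9.26% of all genes tested.

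Of other subunits of the same protein family, 8 of 13 were tested, with a median log2 fold change of 0.06. Arnt2, a relative of Arnt of the nervous system, had 12.4 and 5.92 CPM in wt against 17.6 and 15.8 CPM in dKO libraries (log2 fold change 0.87, 95% interval -0.02 to 1.77). Dropping wt replicate 1 raised it to 1.49, and dropping wt replicate 2 lowered it to 0.43. Ahr, the dioxin receptor and a partner of Arnt, had 18.1 and 23.5 CPM in wt against 16.5 and 15.8 CPM in dKO libraries (-0.37, -0.86 to 0.13). Clock, a circadian factor and the most abundant of them in CPM, had a log2 fold change of 0.13. Hif3a had -0.10.

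The ligase that Vhl serves and the genes that act on alpha subunit turnover stayed within a narrow range. All 19 were tested, with log2 fold changes from -0.16 to 0.32 and a median of -0.01. Usp33, a deubiquitinase that Vhl can target, had the largest positive value, with 59.9 and 62.4 CPM in wt against 78.6 and 74.6 CPM in dKO libraries (0.32, 95% interval 0.03 to 0.62). Stub1, a chaperone-linked ubiquitin ligase, had the largest negative value (-0.16), and the chaperone Hsp90ab1, the most abundant, had -0.10. For the coactivators and antagonists, 15 of 15 were tested with a median of 0.09. Cited1, which competes for Ep300 and Crebbp, had 5.24 and 4.73 CPM in wt against 1.84 and 2.98 CPM in dKO libraries (-1.04, 95% interval -1.94 to -0.14). Ncoa2, a steroid receptor coactivator, had 0.24, and Rbpj, the Notch effector, 0.10. Genes that handle the iron and 2-oxoglutarate used by the hydroxylases, 18 of 18 tested, had a median of 0.04. The iron store gene Ftl1 had the largest positive value (0.35) and Idh1, an isocitrate dehydrogenase, the largest negative one (-0.37).

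Genes listed here as targets of both alpha subunits, not each shown to be so, had a median log2 fold change of 0.02 (29 of 31 tested, 15 positive and 14 negative). It lay between -0.066 and 0.009 when 1 library was left out and the low-count filter rerun, so the genes covered can differ. Kdm3a, a histone demethylase and the most abundant of them in CPM, had 427 and 417 CPM in wt against 428 and 475 CPM in dKO libraries. Bhlhe41, a clock-linked repressor, had the largest positive value (0.86, 95% interval -1.13 to 2.85), at 0.92 to 6.45 CPM with overlapping genotypes. P4ha2, a collagen prolyl hydroxylase, had the largest negative one (-0.44, -1.02 to 0.14). In this list 3 of 29 genes had an unadjusted p under 0.05, beside 5.57% of all genes tested, chosen for naming after their values were seen: the hormone gene Stc2 (0.45), the demethylase Kdm4c (0.37) and the glucose transporter Slc2a1 (-0.36). Vegfa, the vessel growth factor, had 47.1 and 72.2 CPM in wt against 53.4 and 68.0 CPM in dKO libraries (0.02), and was likewise named after its values were seen.

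The 20 genes of the glycolytic list linked to HIF-1, which includes the glycogen genes Gys1 and Gbe1, had a median of -0.18. Of them 6 were positive and 14 negative, and none had an unadjusted p under 0.05. Gapdh, named after its values were seen, was among the positive ones at only 178 and 231 counts in wt against 242 and 313 in dKO libraries. Pkm, pyruvate kinase, had 3479 and 3006 CPM in wt against 3067 and 2252 CPM in dKO libraries (-0.29, 95% interval -0.76 to 0.19). It was -0.076 without dKO replicate 2 and -0.52 without dKO replicate 1. Hk1, a hexokinase, had -0.58 and Gys1, a glycogen synthase, 0.32. This median was 0.003 without dKO replicate 2 and -0.35 without dKO replicate 1.

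Genes linked to HIF-2 had a median of -0.35, with 4 positive and 17 negative among the 21 of 30 tested, so the values lay mostly opposite to that of Epas1. With genotype as the only term none passed the adjusted p of edgeR, DESeq2 or limma-voom, and 4 of 21 had an unadjusted p under 0.05 in edgeR, 2 in each direction, beside 5.57% of all genes tested. Tek, an endothelial receptor kinase, had 21.9 and 13.1 CPM in wt against 29.6 and 27.4 CPM in dKO libraries (0.71, 95% interval 0.05 to 1.37). Kdr, a receptor of Vegfa, had 5.003 and 5.79 CPM in wt against 3.25 and 2.92 CPM in dKO libraries (-0.80, -1.54 to -0.07). The other pair was named after its values were seen. Ccnd1, a cyclin, had 87.3 and 67.6 CPM in wt against 141 and 99.6 CPM in dKO libraries (0.64), and Rgs5, a regulator of G protein signalling, had 10 and 12 counts in wt against 2 and 1 in dKO libraries. Pou5f1, given as a HIF-2 target in stem cells, had -0.01, although its transgene need not share that control. The fibroblast markers given below had a lower median still (-0.65), and their part in this one was not tested. Of genes with average log2 CPM under 5, as many of this list are, 54.2% had negative values, beside 50.3% of all genes. The median lay between -0.23 and -0.10 when 1 library was left out, a smaller size each time (-0.23 and -0.13 with wt replicate 1 or 2 dropped, -0.10 and -0.23 with dKO replicate 1 or 2 dropped). The low-count filter was rerun each time, so these medians can cover genes other than the 21, and the change is not read as an effect of the library alone. Epo, the hormone best known as a HIF-2 target, was among the 9 not tested, with 1 count in all 4 libraries together.

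**Figure D4:**
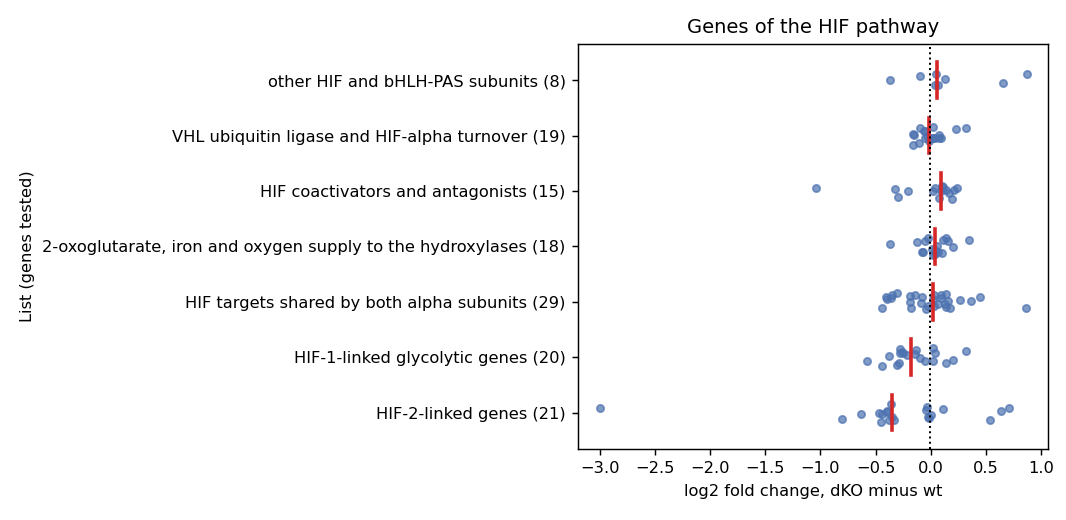
Log2 fold change, dKO minus wt, of each tested gene (point) in the 7 pathway lists, with the list's median as a red bar and the median of all genes as a dotted line. Medians lie between -0.01 and 0.09 except for the glycolytic genes (-0.18) and the genes linked to HIF-2 (-0.35).

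Epas1 is known from endothelium, and markers of cells that might carry it were therefore examined. Of 20 endothelial and blood-forming markers 9 were tested, and Emcn, Hbb-y and Hba-x had no count in any library. Cdh5, a defining endothelial gene, had 1 to 12 counts per library. The summed level was 196 and 261 CPM in wt against 185 and 285 CPM in dKO libraries, mostly from Pecam1, which stem cells also express. At average log2 CPM of at least 1, Gata2 had the largest negative log2 fold change of them (-0.45). Primitive endoderm markers (13 of 13 tested) summed to 509 and 765 CPM in wt against 510 and 675 CPM in dKO libraries. Sparc (-0.44) made up 219 and 387 CPM of this in wt against 153 and 295 CPM in dKO libraries. Of the 13 log2 fold changes 6 were positive and 7 negative, with a median of -0.05, and Amn had the largest negative one (-0.44). Named after their values were seen, Gata4 (0.55), Gata6 (0.53) and Sox17 (0.50) were positive, and Foxa2 (-0.05), Dab2 (-0.12) and Pdgfra (-0.24) negative. Fibroblast markers (6 of 12 tested, S100a4 without a count) summed to 15.6 and 51.1 CPM in wt against 11.8 and 37.0 CPM in dKO libraries, of which Acta2, smooth muscle actin, made up 5.63 and 36.8 CPM in wt against 2.64 and 28.2 CPM in dKO libraries. Of the 6 tested, 5 had negative values, and Twist1 had the positive one (0.76). The median log2 fold change of -0.65 lay between -1.29 and 0.015 when 1 library was left out and the low-count filter rerun. All 3 sums overlapped between genotypes, and replicate 2 was the higher one in each genotype. No single marker passed edgeR's test, and Sox7, in both the endothelial and the endoderm list, had 4.61 and 2.10 CPM in wt against 11.2 and 7.70 CPM in dKO libraries (1.503, unadjusted p under 0.05, adjusted p = 0.72). Its part in the level of Epas1 was not tested. Pdgfrb, a fibroblast marker named after its values were seen, had 13 and 56 counts in wt against 1 and 7 in dKO libraries, also with an unadjusted p under 0.05. Of the stem cell markers, Zfp42 had 666 and 613 CPM in wt against 1449 and 1435 CPM in dKO libraries (1.17, adjusted p = 0.0886 in edgeR), and DESeq2 called it. Utf1 had the largest negative value of the stem cell markers (-0.21).

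Neighbours of Epas1 on chromosome 17 had smaller fitted values than Epas1. Since Epas1 was chosen by its call in this contrast, nothing is read from that gap. Within 250 kb, 4 of 10 genes were tested, with a median log2 fold change of 0.22 (from 0.057 with wt replicate 2 dropped to 0.35 with wt replicate 1 dropped), and none passed. Prkce, a protein kinase and the nearest tested gene on the 5′ side at 96.0 kb, had 0.57 (95% interval -0.49 to 1.63), a value that fell to 0.093 without dKO replicate 2. On the 3′ side Rhoq, a small GTPase at 129.7 kb, had 0.19, Pigf, which acts in anchor synthesis at 163.8 kb, 0.25, and Cript, at 192.1 kb, -0.06. The nearest gene on the 3′ side, Tmem247, had no count. Within 500 kb the median of 7 tested genes was 0.19. Ttc7, named after its values were seen, lay 449.5 kb away and had the largest value of them, 0.91 (95% interval 0.33 to 1.49, adjusted p = 0.661 in edgeR).

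**Figure D5:**
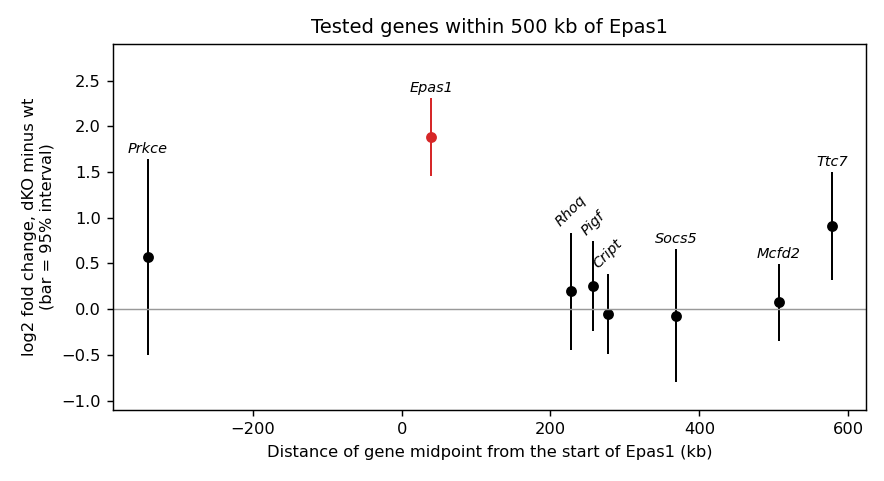
Log2 fold change, dKO minus wt, with 95% interval against the distance of the gene's midpoint from the start of Epas1, for the tested genes within 500 kb. Epas1 is at 1.88, and the next highest is Ttc7 at 0.91.

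The genes whose pattern over the 4 libraries was most like that of Epas1 were found by the distance between log2 CPM values centred on each gene's mean, among 10798 genes. They were Mid1 (distance 0.45), Cyct (0.57), Uggt2 (0.60), Ccdc141 (0.67) and Tenm4 (0.69 log2 units). Mid1, a microtubule-associated ubiquitin ligase on the X chromosome, had 7.19 and 13.9 CPM in wt against 42.3 and 37.5 CPM in dKO libraries. Cyct, the testis form of cytochrome c, had 2.42 and 3.02 CPM in wt against 14.6 and 15.99 CPM in dKO libraries. Uggt2, a glucosyltransferase of glycoprotein folding, had 7.90 and 7.30 CPM in wt against 20.5 and 19.3 CPM in dKO libraries. Ccdc141 had 2.19 and 3.16 CPM in wt against 7.24 and 13.7 CPM in dKO libraries, and Tenm4, a teneurin, 25.9 and 30.2 CPM in wt against 60.0 and 71.6 CPM in dKO libraries. All 5 were higher in both dKO libraries, a pattern of only 4 values that the choice of genes fixes. None is a gene of the lists above.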

How the data were processed

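The data are raw read counts, which the authors deposited as 1 table with 4 library columns and Ensembl gene IDs. The submitters' processing notes list TopHat2 2.0.6, TopHat and HTSeq without saying what each did. Libraries were made from total RNA with an Illumina TruSeq RNA kit, per the labels. The build, annotation and strand setting were not given in the sources used here, so counts of overlapping genes are uncertain. The last gene on chromosome 1 ends at 197054592 in the table and at 195323493 in GENCODE M21, and coordinates are therefore the table's own. Symbols (32919 of 37991 genes) and exon lengths came from GENCODE M21 by gene ID, and promoters from RefSeq.

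After filterByExpr and TMM scaling, edgeR 4.0.16 under R 4.3.3 fitted genotype alone by its robust quasi-likelihood F test. P-values were adjusted by Benjamini-Hochberg over all 14027 genes, with a threshold of 0.05. SEs came from the F statistic. The members and lists were chosen with earlier results of these data known. Always named were the members, then from each list any gene that passed, the one with the highest CPM and those with the largest positive and negative log2 fold change at average log2 CPM of at least 1, tested neighbours within 250 kb, and the 5 genes nearest in pattern at average log2 CPM of at least 2. Alternatives were DESeq2 1.42.0 size factors and Wald test, total counts, other filters, limma-voom (limma 3.58.1), a replicate block and each library left out. The replicates of a genotype were distinct libraries, with chi-square over degrees of freedom of 20.1 in wt and 20.04 in dKO. The edgeR script was tested on simulated data, where it recovered the simulated fold sizes but made a larger share of false calls than the adjusted p threshold allows.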

Additional observations from a re-analysis of the deposited data

How the results depend on the processing

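Epas1 was called under 9 of 11 alternatives, with adjusted p from 1.37e-12 (DESeq2) to 0.0737 (limma-voom). It lost the call with total counts only (log2 fold change 1.86, adjusted p = 0.0724) and by limma-voom (1.88), and ranged from 1.72 to 2.06 with 1 library left out. Egln3 gained a call with a replicate block (-1.26, adjusted p = 0.000182, against 0.288 to 0.999 otherwise). With 1 library left out it ranged from -1.77 to -0.83. Signs near 0 turned when 1 library was left out: Vhl -0.24 to 0.16, Egln1 -0.17 to 0.059, Egln2 -0.11 to 0.049. Hif1a (0.07 to 0.28), Arnt (0.12 to 0.28) and Hif1an (0.05 to 0.22) kept their sign. These uncalled genes did not: Clock (-0.040 to 0.32), Hsp90ab1 (-0.26 to 0.053), Rbpj (-0.094 to 0.33), Ncoa2 (-0.043 to 0.57), Idh1 (-0.69 to 0.051), Bhlhe41 (-0.17 to 2.20), Hk1 (-1.04 to 0.044), Pou5f1 (-0.12 to 0.10), Pecam1 (-0.36 to 0.49), Sparc (-0.98 to 0.031), Acta2 (-3.00 to 1.45), Rhoq (-0.048 to 0.41) and Cript (-0.25 to 0.16). In place of 12 genes over the whole table, 80 were called when no low-count filter was used, 96 by DESeq2, 5 by limma-voom, and 18 to 27 after leaving out 1 library. With a replicate block 1299 genes were called, 9.26% of those tested. They included 20 of the 130 pathway genes (15.4%, 8 higher and 12 lower), 7 of them among the 21 tested genes linked to HIF-2. Same-numbered libraries deviated together (r = 0.65), which the labels do not explain. Leaving out 1 library also turned the sign of the median for turnover genes (-0.087 to 0.021), coactivators (-0.043 to 0.13), shared targets (-0.066 to 0.009) and glycolytic genes (-0.35 to 0.003). The low-count filter was rerun in each of these fits, so list medians can cover genes that the main fit left out. The marker medians turned as well: endothelial and blood-forming (-0.42 to 0.29), primitive endoderm (-0.017 to 0.35), fibroblast (-1.29 to 0.015) and stem cell (-0.007 to 0.18). Other uncalled values kept their sign but moved by over 1.5 times: Arnt2 (0.43 to 1.49), Ahr (-0.55 to -0.16), Stub1 (-0.28 to -0.040), Ftl1 (0.11 to 0.62), Kdm3a (0.025 to 0.17), P4ha2 (-0.65 to -0.25), Pkm (-0.52 to -0.076), Gys1 (0.18 to 0.46), Tek (0.38 to 1.12), Prkce (0.093 to 0.94) and Pigf (0.087 to 0.43). Low counts limit Egln1, Egln3, Vhl and, in wt, Epas1 (164 and 245 counts), and 16 pathway genes were too low to test.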
